A study of Mus musculus with 6 samples.

Results

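The genes described here are targets of the tumour suppressor p53 in mouse liver. The list named 10 genes: Trp53, Mdm2, Cdkn1a, Ccng1, Phlda3, Gadd45a, Gadd45b, Gadd45g, Btg2 and Trp53inp1. Every probe set whose platform annotation gave 1 of these symbols was taken, which brought in 12 probe sets for 7 genes, out of 11811 probe sets naming 7163 genes. Ccng1 had 3 probe sets, Mdm2, Btg2 and Trp53inp1 had 2 each, and Phlda3, Gadd45b and Gadd45g had 1 each. Trp53, Cdkn1a and Gadd45a were not analysed here, so neither the level of the p53 transcript nor that of its best known arrest target was read. The comparison was between 3 arrays of total liver RNA from Atp7b knockout mice, labelled KO903, KO904 and KO905, and 3 from wild-type mice, labelled WT4, WT5 and WT6. Atp7b encodes the copper-exporting ATPase that is lost in Wilson disease, and the series title places the samples early in copper accumulation. The labels give no strain, sex, age, diet or time of day for either group, and of the knockout they say only where the line was published.

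p53 is a transcription factor that is held low in unstressed cells by the ubiquitin ligase MDM2 and accumulates after DNA damage and other stress. It binds pairs of a short palindromic half-site near its target genes. The products of those genes stop the cell cycle, assist repair, promote or restrain cell death, and close a feedback loop by raising MDM2. In liver this programme is known from irradiation, toxic injury and regeneration.

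The values are MAS 5.0 signals, a linear brightness scale on which each array was scaled as a whole. Array medians lay between 337.3 and 342.8 in knockout livers and between 330.8 and 337.3 in wild-type livers. The Atp7b probe set read 240.5, 231.8 and 184.9 in KO903, KO904 and KO905, against 259, 299.7 and 241 in WT4, WT5 and WT6 (log2 difference -0.27, adjusted p = 0.407 in limma), and whether it reads sequence that the knockout removes was not examined. Hepatocyte transcripts were bright in both groups. Alb had a mean signal of 24489 in knockout and 24337 in wild-type livers, and Ttr 24360 and 23884. Among 12 tested hepatocyte markers 3, Alb and Ttr included, had log2 differences above 0, beside 56.4% of all tested genes. The median was -0.09. None passed an adjusted p of 0.05 in limma, and Tat, with the smallest p, had a log2 difference of -0.42 (adjusted p = 0.0803). Of 10620 probe sets tested on log2(signal + 16) with limma, 4.14% passed a Benjamini-Hochberg adjusted p of 0.05, 2.05% as higher and 2.09% as lower in the knockout.

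Among the 7 genes measured, Ccng1, Phlda3 and Gadd45g rose in the knockout livers and none fell. The brightest probe set of Ccng1 was 2.10-fold higher, that of Phlda3 2.08-fold and that of Gadd45g 1.64-fold. Mdm2 was 1.56-fold higher on both of its probe sets, and neither passed the test. Gadd45b, Btg2 and Trp53inp1 had differences close to 0. Read on the brightest probe set of each gene, 3 of 7 genes passed as higher, beside 2.14% of all 6604 tested genes (1.8% as lower), and 5 of 12 probe sets did, beside 2.05% of all tested probe sets. The knockout values all lay above the wild-type values in 4 of 7 genes, beside 14% of all tested genes, and in 7 of 12 probe sets, beside 13.2% of all tested probe sets. The median log2 difference was 0.64 over the 7 genes and 0.03 over all tested genes. The genes were chosen with earlier results of these arrays known, so these counts are a description. All 12 probe sets passed the minimum mean signal of 100, and the lowest group mean among them, 158.7 for Gadd45g in wild type, was itself above it.

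**Figure D1:**
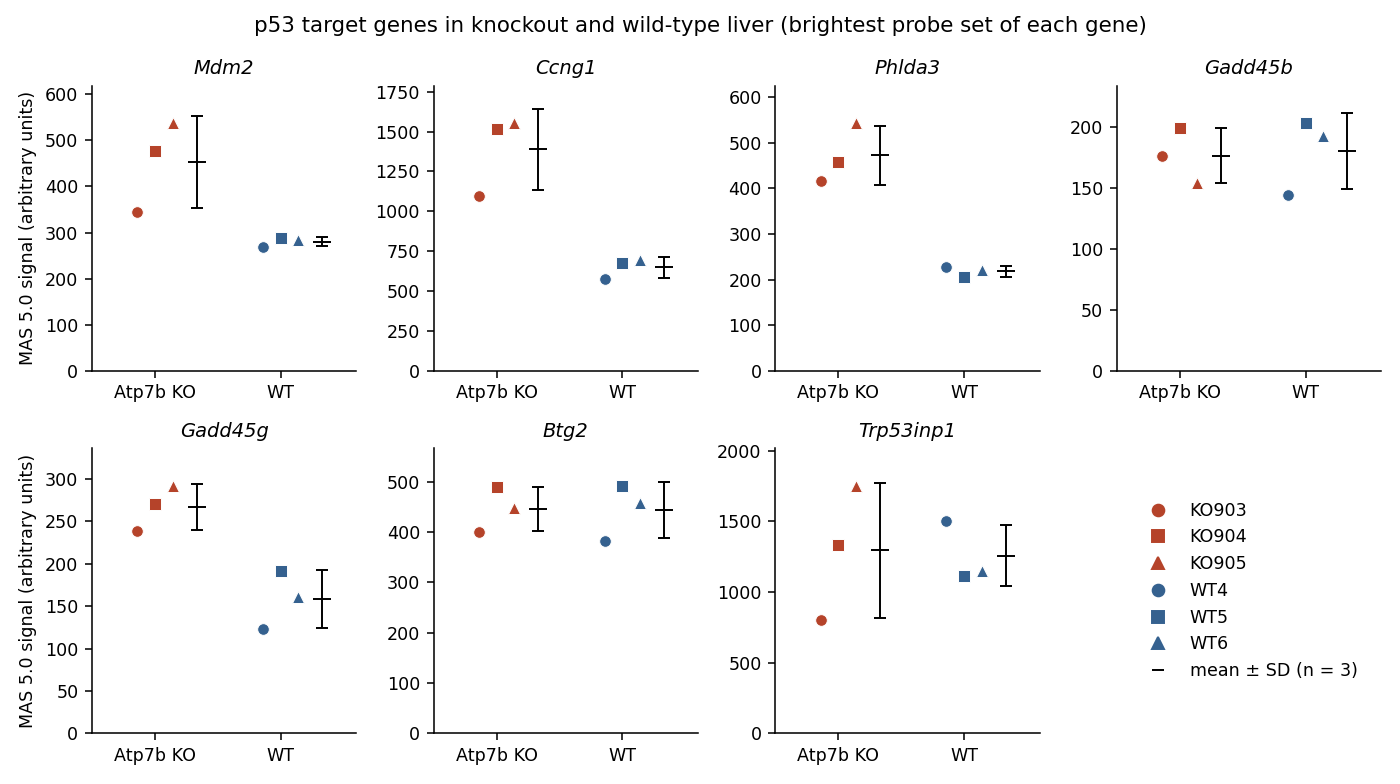
MAS 5.0 signal (vertical axis, linear from 0, arbitrary units) of the brightest probe set of each of the 7 measured genes in the 3 Atp7b knockout and 3 wild-type arrays, with 1 point per array and the mean ± SD beside each group. Ccng1, Phlda3, Gadd45g and Mdm2 show knockout points above all wild-type points, while the groups overlap for Gadd45b, Btg2 and Trp53inp1.

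The promoter windows of the genes that rose, and of Mdm2, are printed because p53 acts through half-sites in DNA. The windows come from RefSeq, build GRCm38.p6, and run from 250 bases before a gene's start to 50 bases after it, 5′ to 3′ on the gene's own strand. They were searched on both strands for the p53 half-site consensus, which reads the same on either strand, and for the full site of 2 adjacent half-sites without a spacer, in which the central C and G of each were required. Capitals mark the closest full site for Ccng1 and an exact half-site for Mdm2. For Phlda3 they mark the opening letters of a possible half-site, cut off by the end of the window.
Ccng1, chr11:40755237-40755536, minus strand: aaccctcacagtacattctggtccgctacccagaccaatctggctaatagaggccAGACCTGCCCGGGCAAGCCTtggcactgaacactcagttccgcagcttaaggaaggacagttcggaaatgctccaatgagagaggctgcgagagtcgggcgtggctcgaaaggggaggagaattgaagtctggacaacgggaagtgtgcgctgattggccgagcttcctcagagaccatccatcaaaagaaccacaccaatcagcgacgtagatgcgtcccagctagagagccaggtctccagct
Phlda3, chr1:135765835-135766134, plus strand: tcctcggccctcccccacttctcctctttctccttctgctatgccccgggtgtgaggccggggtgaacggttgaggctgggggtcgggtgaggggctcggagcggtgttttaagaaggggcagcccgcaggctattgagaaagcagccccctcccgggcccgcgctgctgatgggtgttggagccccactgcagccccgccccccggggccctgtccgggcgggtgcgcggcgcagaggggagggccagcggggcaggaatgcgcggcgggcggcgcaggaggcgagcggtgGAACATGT
Gadd45g, chr13:51846425-51846724, plus strand: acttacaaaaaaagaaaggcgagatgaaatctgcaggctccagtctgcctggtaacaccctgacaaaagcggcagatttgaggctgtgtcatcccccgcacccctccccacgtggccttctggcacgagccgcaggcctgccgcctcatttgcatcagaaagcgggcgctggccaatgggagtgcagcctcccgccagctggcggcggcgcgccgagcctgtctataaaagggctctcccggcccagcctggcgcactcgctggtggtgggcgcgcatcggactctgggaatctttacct
Mdm2, chr10:117710709-117711008, minus strand: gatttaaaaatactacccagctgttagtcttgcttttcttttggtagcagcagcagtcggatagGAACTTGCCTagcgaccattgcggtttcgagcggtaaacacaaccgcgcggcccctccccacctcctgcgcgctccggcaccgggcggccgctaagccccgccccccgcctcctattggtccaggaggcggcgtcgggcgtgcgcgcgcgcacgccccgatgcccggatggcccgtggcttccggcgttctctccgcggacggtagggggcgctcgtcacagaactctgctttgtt

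The Ccng1 window held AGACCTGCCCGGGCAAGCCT, with its first base at position -195 from the start, a full site with 1 mismatch to the consensus. Of 32841 promoter windows of the same length, 0.067% held a full site with at most 1 mismatch. The closest full site had 5 mismatches in the Phlda3 window, 8 in that of Gadd45g and 9 in that of Mdm2. In the windows of Gadd45b and Btg2, whose differences were close to 0, it had 7. The later part of the Ccng1 site, GGGCAAGCCT, is an exact half-site, which 8.36% of all windows hold at least once. In the Mdm2 window an exact half-site, GAACTTGCCT, began at position -186. The Phlda3 window held no complete half-site, but its last 8 letters, GAACATGT, match the opening letters of one. Of all windows 0.186% end in 8 or 9 such letters. That share was counted at the window's end only, so it cannot be set against the 8.36% counted over whole windows. Whether the bases past the cut complete the half-site was not examined. No exact half-site was found in the windows of Gadd45g, Gadd45b or Btg2. A match in these windows is a description of the sequence, and sites outside them were not searched.

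Ccng1 encodes cyclin G1, an atypical cyclin that recruits protein phosphatase 2A to MDM2 and is a well known p53 target in rodents. Its brightest probe set read 1095.4, 1518.7 and 1554 in KO903, KO904 and KO905, against 575.2, 676.1 and 693.1 in WT4, WT5 and WT6. The lowest knockout array was well above the highest wild-type array, and the knockout arrays were the more spread out. The means were 1389 ± 255 in knockout and 648 ± 63.7 in wild-type livers (SD, n = 3 each), with a log2 difference of 1.07 ± 0.15 (SE; limma adjusted p = 0.00364). The other probe sets, built on the same sequence record, gave log2 differences of 1.25 ± 0.18 (adjusted p = 0.00372) and 1.28 ± 0.20 (adjusted p = 0.00612). The dimmest of the 3 read 412.1, 542.3 and 631.6 in the knockout arrays, against 221, 252.5 and 154.1 in the wild-type arrays. The groups were apart on all 3 probe sets, and KO903 was the lowest knockout array on each.

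Phlda3 encodes a small pleckstrin homology domain protein that competes with the kinase AKT for membrane lipids and so restrains survival signalling. Its signals were 416.7, 457.4 and 543.6 in KO903, KO904 and KO905, against 226.8, 205.2 and 222 in WT4, WT5 and WT6. The wild-type arrays lay close together and every knockout array stood far above them. The means were 473 ± 64.8 in knockout and 218 ± 11.3 in wild-type livers (SD, n = 3 each), and the log2 difference was 1.05 ± 0.14 (SE; limma adjusted p = 0.00258). By p this probe set ranked 54 among all 10620 tested, and the brightest of Ccng1 ranked 63. Both genes passed under every alternative in processing that was run and with any 1 array left out, with adjusted p up to 0.026 for Ccng1 and 0.0139 for Phlda3.

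**Figure D2:**
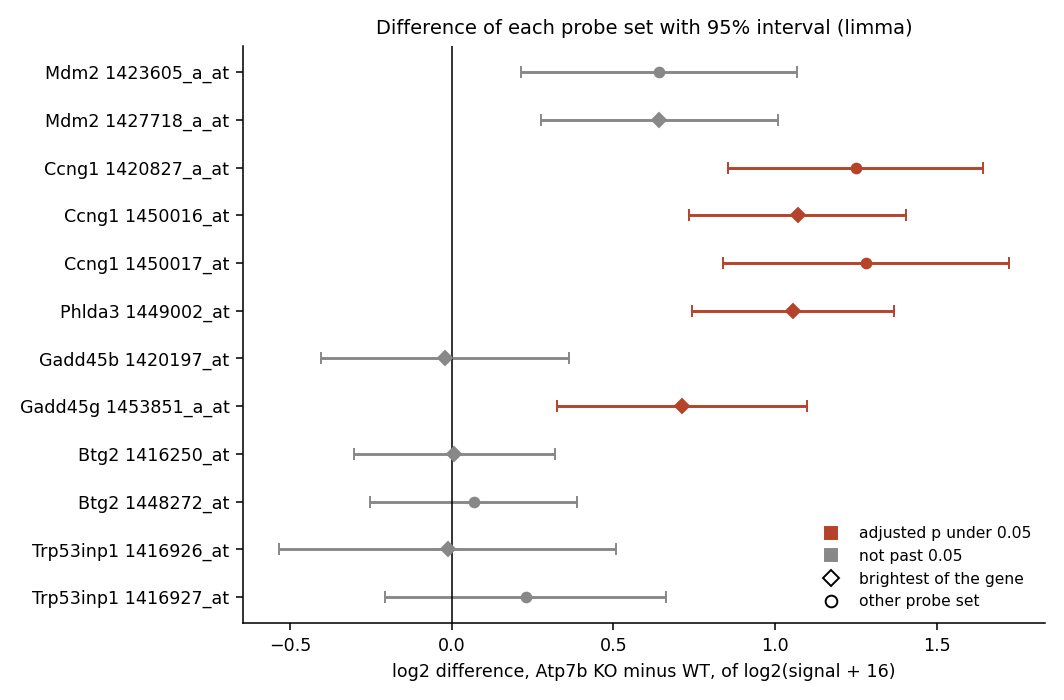
Log2 difference, Atp7b knockout minus wild type, of each of the 12 probe sets (points) with its 95% interval from limma (bars). Red points passed an adjusted p of 0.05 and grey points did not, diamonds mark the brightest probe set of a gene, and the intervals of both Mdm2 probe sets lie above 0 although neither passed after adjustment.

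The GADD45 genes encode small stress sensors that bind PCNA, the CDK1 complex and the kinase MTK1, and of the family Gadd45g and Gadd45b were measured. Gadd45g read 238.9, 270.4 and 292.3 in KO903, KO904 and KO905, against 123.5, 191.5 and 161.2 in WT4, WT5 and WT6. These are dim signals, yet the groups did not overlap. The means were 267 ± 26.8 in knockout and 159 ± 34.1 in wild-type livers (SD, n = 3 each; log2 difference 0.71 ± 0.18 SE, limma adjusted p = 0.0477). That call ended without KO903, KO904, KO905, WT4 or WT6 (adjusted p from 0.0892 to 0.154), after quantile normalization (0.0635), after centring each array on its median (0.0578) and without the intensity trend in limma (0.0534). Gadd45b, known also as an early response gene of liver regeneration, read 176.2, 199 and 154.2 in the knockout arrays, against 144.4, 203.2 and 192.5 in the wild-type arrays. Its groups overlapped throughout, and the log2 difference of -0.02 had a 95% interval from -0.40 to 0.36 (limma adjusted p = 0.97). The Gadd45g difference exceeded that of Gadd45b by 0.73 ± 0.16 (SE) on the log2 scale, with the per-array difference of the pair apart between groups. An exact two-sided permutation test gave p = 0.1, the smallest that 3 against 3 arrays allow (0.15 after adjustment over 3 pairs of related genes compared). That floor lies above 0.05, so the test could not pass, and the difference of the pair is a description.

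Mdm2, the ubiquitin ligase that marks p53 for degradation, has a p53-responsive promoter within its first intron as well as the upstream one printed above, and which transcripts its probe sets read was not examined. The brighter probe set read 344, 477.8 and 537.8 in KO903, KO904 and KO905, against 269.5, 287.8 and 282.9 in WT4, WT5 and WT6. The other read 224.6, 340.6 and 250.7 in the knockout arrays, against 131.1, 180.5 and 193.2 in the wild-type arrays. On both, all knockout values lay above all wild-type values, with KO903 closest to wild type. The log2 differences were 0.64 ± 0.17 (SE; 95% interval 0.28 to 1.01, limma adjusted p = 0.0566) and 0.64 ± 0.19 (0.21 to 1.07, adjusted p = 0.0973). The brighter probe set passed without KO903 (log2 0.82, adjusted p = 0.0226) and with array weights (adjusted p = 0.0471), and the mean over both probe sets passed as well (adjusted p = 0.0428), whereas leaving out a different array gave an adjusted p of up to 0.18.

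Btg2, an antiproliferative cofactor of the CCR4-NOT deadenylase and also an immediate early gene, showed no difference that passed the test. Its brighter probe set read 401, 489.6 and 448.3 in KO903, KO904 and KO905, against 383.2, 492.6 and 457.7 in WT4, WT5 and WT6. The groups covered almost the same range, and the log2 difference of 0.01 had a 95% interval from -0.30 to 0.32 (limma adjusted p = 0.987). The second probe set had a log2 difference of 0.07 (adjusted p = 0.857), also with overlapping groups.

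Trp53inp1, which encodes a p53-induced nuclear protein that takes part in autophagy and in the choice of death genes, was the most variable of the 7 in the knockout. Its brighter probe set read 801.9, 1333 and 1753 in KO903, KO904 and KO905, against 1503.7, 1113.5 and 1150.6 in WT4, WT5 and WT6. KO903 was the lowest and KO905 the highest of all 6 arrays, so the knockout SD was 477 beside 215 in wild type (n = 3 each). The log2 difference was -0.01 ± 0.24 (SE; 95% interval -0.53 to 0.51, limma adjusted p = 0.989). On its second probe set it was 0.23 ± 0.20 (95% interval -0.20 to 0.66, adjusted p = 0.602). Without KO903 the brighter one gave a log2 difference of 0.29 (adjusted p = 0.497).

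The knockout arrays kept much the same order across these genes. KO903 was the lowest knockout array on 11 of 12 probe sets, whereas over all tested probe sets it was the lowest on 32%. KO905 was the highest on 8 of 12 and KO904 on 4 of 12, against 29.9% and 35.5% of all tested probe sets. Among wild-type arrays, WT4 was lowest on 6 of 12, WT5 on 4 and WT6 on 2. Several of these probe sets read the same gene, so the 12 are not independent, and the order was noticed in these values, without a test. Without KO903 the log2 difference of Ccng1 was 1.23 and that of Phlda3 1.14. Without KO905 they were 0.98 and 0.95.

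**Figure D3:**
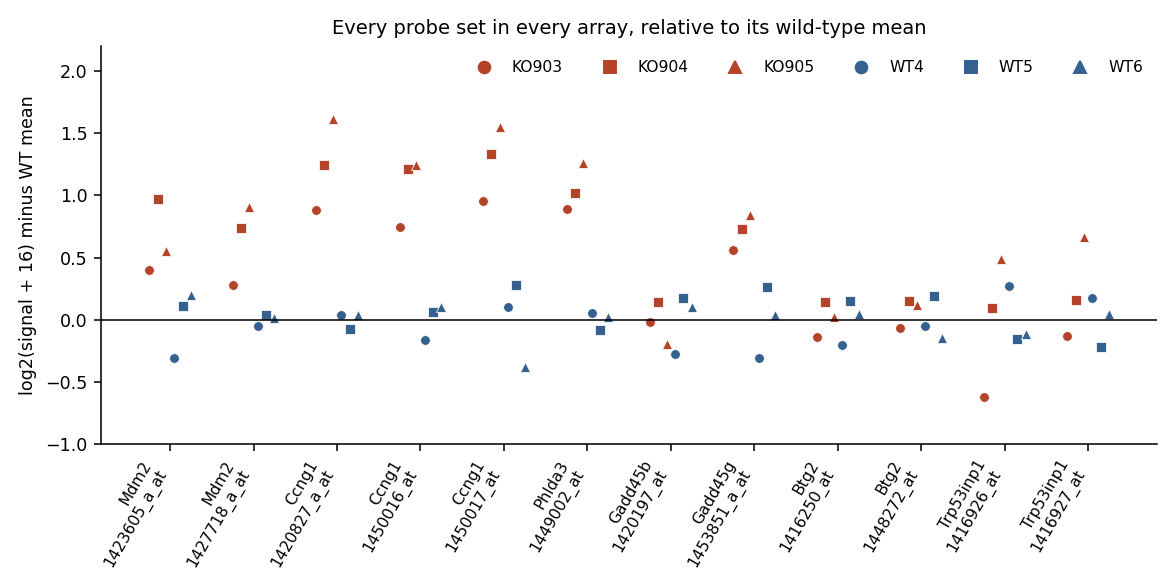
Log2(signal + 16) of each of the 12 probe sets in each array, minus the mean of its 3 wild-type arrays (vertical axis). Knockout arrays are red and wild-type arrays blue, and KO903 (red circles) is the lowest knockout point on 11 of 12 probe sets.

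Relatives of the genes passed the test in both directions. Of 9 tested paralogs, Ccng2 rose, Phlda1 fell and 7 did not pass, beside 3.94% of all tested genes passing in either direction, and the median log2 difference was -0.01. Ccng2, the other cyclin G, which is known as a target of FOXO factors, read 404.7, 444.6 and 342.1 in the knockout arrays, against 202.7, 286.9 and 158.3 in the wild-type arrays (log2 0.86 ± 0.20 SE, limma adjusted p = 0.0362). On its second probe set the log2 difference was 0.69 (adjusted p = 0.067), and the call on the first ended when any 1 array except WT5 was left out (adjusted p from 0.0632 to 0.141) and without the intensity trend (0.0546). The differences of Ccng1 and Ccng2 were 0.21 ± 0.33 (SE) apart (exact two-sided permutation p = 0.6, n = 3 each). Phlda1, a pleckstrin homology domain relative of Phlda3 linked to growth factor signalling, read 529.9, 365.2 and 480.8 in the knockout arrays, against 832.3, 804.7 and 988.4 in the wild-type arrays. Its knockout values were all below wild type (log2 -0.92 ± 0.16 SE, limma adjusted p = 0.00863). The difference of Phlda3 exceeded that of Phlda1 by 1.97 ± 0.21 (SE) on the log2 scale, given as a description, since the genes had already passed the test in opposite directions.

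Further p53 targets were read in lists by role. In a list of death and survival targets, 1 of 6 tested genes rose, Casp6, and 5 did not pass, beside 2.14% of all tested genes passing as higher. Casp6, an executioner caspase, read 1130.7, 985.9 and 1142.5 in the knockout arrays, against 510.1, 641 and 836.1 in the wild-type arrays (log2 0.73 ± 0.17 SE, limma adjusted p = 0.0362). That call ended when any 1 array except WT6 was left out (adjusted p from 0.0597 to 0.121) and without the intensity trend (0.065). Bbc3, which encodes the death inducer PUMA, had means of 167 in knockout and 243 in wild-type livers, with a log2 difference of -0.50 that did not pass (adjusted p = 0.133). Dusp6 (log2 0.39), Aen (log2 0.32), Siva1 (log2 0.18) and Perp (log2 0.02) did not pass. Of the 6 genes 5 had log2 differences above 0, beside 56.4% of all tested genes, and the median was 0.25. An unadjusted p under 0.05 was reached by 2 of 6, beside 18% of all tested genes.

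Among 18 tested targets of arrest, repair and metabolism, 1 fell, Lpin1 (log2 -1.54 ± 0.15 SE, limma adjusted p = 0.000332), a phosphatidate phosphatase gene with many other regulators in liver, and 17 did not pass, beside 1.8% of all tested genes passing as lower. An unadjusted p under 0.05 was reached by 7 of 18, beside 18% of all tested genes. The unpassed genes with the smallest p were all higher in every knockout array. They were Pml, which encodes the scaffold of nuclear bodies (log2 0.53, adjusted p = 0.0618), the drug efflux pump gene Abcb1a (log2 0.50, adjusted p = 0.102) and the peptide transporter gene Tap1 (log2 0.42, adjusted p = 0.111). The other unpassed genes with an unadjusted p under 0.05 were Ccnd1, Ephx1 and Ercc5. Ccnd1 was lower (log2 -0.70) and Ephx1 higher (0.30), both with overlapping groups. Ercc5 (0.50) was higher in every knockout array. The median of the list was 0.08.

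No regulator or cofactor of p53 passed among 19 tested in limma, with 2 at an unadjusted p under 0.05, beside 18% of all tested genes, and a median log2 difference of -0.03. The smallest p was that of Chek2, the checkpoint kinase that phosphorylates p53, at 211.2, 185.7 and 175.2 in the knockout arrays, against 102.7, 141.7 and 128.1 in the wild-type arrays (log2 0.57 ± 0.17 SE, adjusted p = 0.0927). Of 23 protein partners of the listed genes none passed in limma, and 3 had an unadjusted p under 0.05, beside 18% of all tested genes. The smallest p there belonged to Prmt1, an arginine methyltransferase that binds BTG proteins, which read 160, 167.3 and 171 in the knockout arrays, against 251.7, 271 and 231.7 in the wild-type arrays (log2 -0.55 ± 0.14 SE, adjusted p = 0.0549, and 0.0355 to 0.0587 under alternatives that keep all arrays). The others under that unadjusted p were Mapk14, the stress kinase p38 downstream of GADD45 and MTK1, and Cdk2. Their log2 differences were -0.46 (limma adjusted p = 0.0786) and -0.65 (adjusted p = 0.122), and both were lower in every knockout array. PCNA, which the GADD45 proteins and p21 bind, had a log2 difference of 0.05 in its transcript (Pcna, adjusted p = 0.918).

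**Figure D4:**
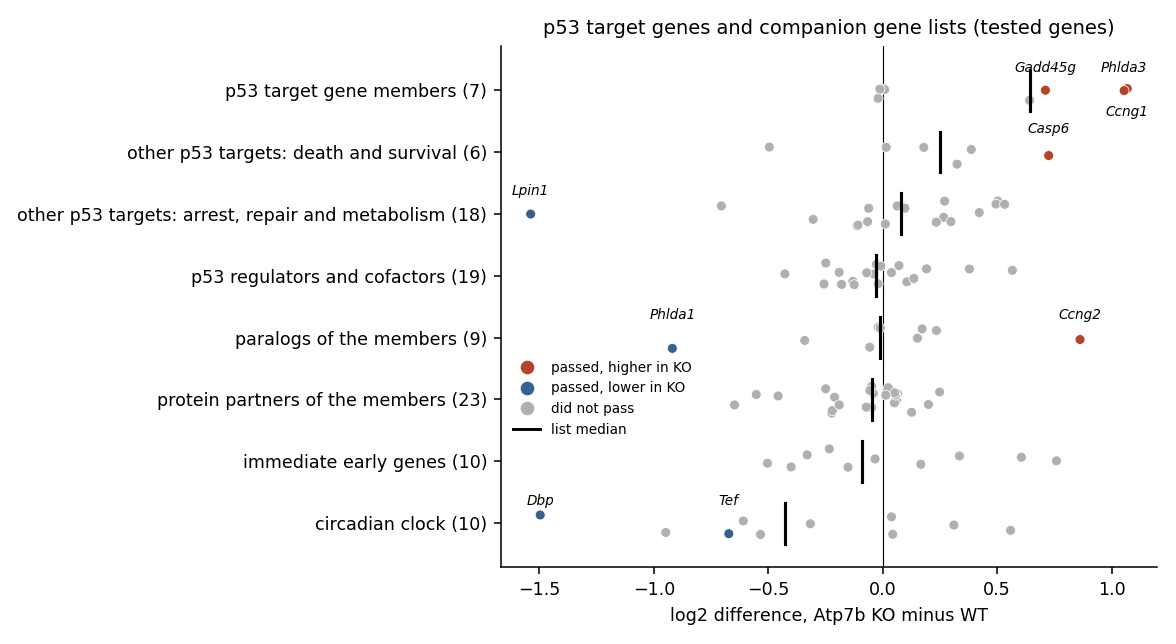
Log2 difference, Atp7b knockout minus wild type, of every tested gene (points) of the p53 target genes and of 7 companion lists, with the number tested in brackets and the list median as a black bar. Red points passed as higher and blue points as lower, and the median is 0.64 for the p53 target genes and between -0.42 and 0.25 for the other lists.

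Some p53 targets also answer to signals other than p53, and lists for these are given beside them. Of 10 immediate early genes, a class that includes Btg2 and Gadd45b, none passed in limma (4 at an unadjusted p under 0.05, beside 18% of all tested genes). Zfp36, with the smallest p, had a log2 difference of -0.40 (adjusted p = 0.0594, or 0.047 with array weights and 0.0411 with the mean over probe sets). The others under that unadjusted p, Klf2 (log2 0.61), Dusp1 (0.76) and Nr4a1 (0.34), were higher in every knockout array without passing. The list had 4 of 10 genes above 0 and a median of -0.09. Of 10 clock genes, Dbp (log2 -1.50 ± 0.19 SE, adjusted p = 0.00162) and Tef (log2 -0.67 ± 0.13 SE, adjusted p = 0.0176), both output transcription factors of the clock, fell and 8 did not pass, beside 1.8% of all tested genes passing as lower. An unadjusted p under 0.05 was reached by 8 of 10 clock genes, beside 18% of all tested genes. Log2 differences were above 0 in 4 of 10, and Clock (0.56) and Nr1d1 (0.31) were higher in every knockout array without passing. Per1 (-0.95), Hlf (-0.61), Bhlhe40 (-0.53) and Nr1d2 (-0.32) were lower in every knockout array, also without passing. Tef missed the threshold without KO903, KO905, WT4 or WT6 (adjusted p from 0.0566 to 0.0786). The summed signal of the 10 clock genes was 5924 to 6809 in knockout arrays and 8438 to 10361 in wild-type arrays. The time of sampling is not in the labels, and the part of the clock in the p53 target results was not tested. None of 7 tested proliferation markers passed in limma (2 at an unadjusted p under 0.05, beside 18% of all tested genes). Top2a, with the smallest p, had a log2 difference of 0.68 (adjusted p = 0.116). The other under that unadjusted p, Rrm2, had a log2 difference of -0.71 (adjusted p = 0.18), and 6 of 7 markers lay above 0.

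No marker of another liver cell type passed in limma, and the median of most marker lists was above 0. All 10 tested macrophage markers had log2 differences above 0, beside 56.4% of all tested genes, with a median of 0.32 and 4 at an unadjusted p under 0.05 (18% of all tested genes), and their summed signal was 6272 to 8366 in knockout arrays and 4530 to 6400 in wild-type arrays. Among 8 tested endothelial markers 7 had log2 differences above 0, beside 56.4% of all tested genes, with a median of 0.14. An unadjusted p under 0.05 was reached by 4 of them (18% of all tested genes). These were Stab2 (log2 0.36), Eng (0.45) and Clec4g (0.32), and Lyve1, which was lower (-0.56). The sums of the 8 were 3112 to 3825 in knockout arrays and 2600 to 3007 in wild-type arrays. Those of 3 genes listed for lymphocytes and neutrophils, Ms4a1, Ighm and Ptprc, were 458.8 to 508.4 in knockout arrays and 345.6 to 463.5 in wild-type arrays. Of 9 genes listed for cholangiocytes only Cdh1 was tested, and it read 330.5 to 539.5 in knockout arrays and 180.9 to 291 in wild-type arrays. Knockout values all above wild-type values were seen in 14% of all tested genes. Whether the Cdh1 signal came from cholangiocytes or from other cells was not examined. The 5 tested stellate cell markers had a median of -0.04 and sums of 5783 to 6901 in knockout arrays and 5171 to 6990 in wild-type arrays. The defining macrophage markers Adgre1 and Clec4f had means of 446 and 953 in knockout and 424 and 675 in wild-type livers. In RNA of whole liver, more cells of a type and more RNA per cell cannot be told apart, and the part of these cells in the rise of Ccng1, Phlda3 and Gadd45g was not tested.

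The genes with profiles most like each risen gene were found by Pearson's r of log2 signal over the 6 arrays, among 6603 other genes. For Phlda3 these were Trmt10b (r = 0.998), Map3k20 (r = 0.994), a kinase of the ribotoxic stress response, and Sult1b1 (r = 0.992), a sulfotransferase. Map3k20 had means of 214 in knockout and 104 in wild-type livers (log2 0.94, adjusted p = 0.00747), and Sult1b1 685 and 377 (log2 0.83, adjusted p = 0.00487). For Ccng1 the closest were Tmem132a (r = 0.996), Ndfip2 (r = 0.993), an adaptor of NEDD4 ubiquitin ligases, and Psmc6 (r = 0.989), a proteasome ATPase, and of these Psmc6 passed (log2 0.48, adjusted p = 0.043). That call ended when any 1 array except WT5 was left out (adjusted p from 0.0676 to 0.154), after centring (0.058), without the trend (0.081) and with the mean over probe sets (0.0674). For Gadd45g they were Hfe (r = 0.996), the haemochromatosis gene, Coq9 (r = 0.995) and Apoc2 (r = 0.991), none of which passed. With 6 arrays in 2 separated groups and 6603 genes compared, correlations this high are a description of these arrays.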

How the data were processed

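Total liver RNA was measured on Affymetrix arrays, 1 per sample, 3 Atp7b knockout and 3 wild type, with groups taken from the sample titles. The deposited values are linear intensity values, which per the labels are MAS 5.0 signals scaled to a target average of 350 per array. The choice of the 11811 probe sets is not stated, and no detection calls were used. The labels do not say that samples are separate animals, so the spread behind each p-value may be technical.

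After 33 control probe sets and 1158 with a mean signal under 100 were left out, limma (lmFit, eBayes with an intensity trend, two-sided) was fitted to log2(signal + 16) over 10620 probe sets, with Benjamini-Hochberg adjustment over all and a threshold of 0.05. Fold changes on this scale understate the change of low signals. The number of arrays limits the precision. Symbols came from the platform annotation, checked against RefSeq (GRCm38.p6; 0 changed), and the brightest tested probe set stood for a gene. RefSeq promoter windows were found for 6 of the 7 genes, not for Trp53inp1.

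The genes and lists were chosen with earlier results of these data known. Named are the listed genes, Atp7b, the genes of each companion list that passed (up to 4, or the 1 with the smallest p), and the 3 genes most like each risen gene. Bbc3, Siva1, Perp, Dusp6, Aen, Pml, Abcb1a, Tap1, Ephx1, Ercc5, Mapk14, Cdk2, Pcna, Ccnd1, Klf2, Dusp1 and Nr4a1 were named after their values were seen. So were the clock genes Clock, Nr1d1, Per1, Hlf, Bhlhe40 and Nr1d2. The same holds for the markers Rrm2, Alb, Ttr, Tat, Adgre1, Clec4f, Stab2, Eng, Clec4g, Lyve1, Ms4a1, Ighm, Ptprc and Cdh1. The scripts were tested on simulated data. Alternatives were quantile normalization, median centring, pseudocounts of 1 and 64, no filter or a minimum signal of 200, limma without trend, robust or with array weights, the mean over probe sets, and leaving out each array. R 4.3.3, limma 3.58.1, Python 3.11.15 and matplotlib 3.10.9 were used.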

Additional observations from a re-analysis of the deposited data

How the results depend on the processing

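No paired analysis was possible because the groups share no replicate number. With 1 array left out, the number of probe sets passing as higher ran from 82 to 238 and as lower from 93 to 231, against 218 and 222 with all arrays, and the number of the 7 p53 target genes passing as higher ran from 2 to 3. Over the other alternatives that number ran from 2 to 4, and none of the 7 passed as lower under any alternative run. Among death and survival targets the count passing as higher was 0 without the intensity trend and 0 to 1 with 1 array left out. Among arrest, repair and metabolism targets it was 1 (Pml) without the trend and 2 (Pml and Abcb1a) with the mean over probe sets, and 1 to 2 passed as lower with 1 array left out, Ccnd1 joining without WT5. Among paralogs the count passing as higher was 0 without the trend and 0 to 1 with 1 array left out. Among protein partners 1 gene, Prmt1, passed as lower after quantile normalization, after centring, at a minimum mean signal of 200, without the trend, with array weights and with the mean over probe sets. Among immediate early genes Zfp36 passed as lower with array weights and with the mean over probe sets.

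Differences near 0 changed sign. Gadd45b had a log2 difference of 0.0325 with array weights, and from -0.16 to 0.0672 with 1 array left out. Btg2 had -0.0158 after quantile normalization and -0.0182 after centring, and from -0.0909 to 0.0838 with 1 array left out, while its second probe set ran from -0.0039 to 0.16. Trp53inp1 had 0.11 with the mean over probe sets, and from -0.26 to 0.29 with 1 array left out. The cause of these changes was not tested. Gadd45b could not be tested at a minimum mean signal of 200, which it lies under. Gadd45b and Gadd45g are dim, and without detection calls their distance from background is unknown.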
